A study of Mus musculus with 4 samples.

Results

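Itih4, Chil1, Lrg1, Hc, Lcn2, Cxcl15, Wfdc2, Rnase4 and Ang are 9 of the 31055 features in single-cell RNA-seq counts of total viable cells from mouse lung tumors. All 9 encode secreted proteins, and they were chosen by their levels in these cells: Itih4, Chil1, Lrg1 and Hc were picked because they led the alveolar type II (ATII)-like tumor cells, and the other 5 were set beside them as proteins released by the same epithelium. Their epithelial levels, and the rise of those levels with the ATII state, are therefore a description and support nothing.

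Tumors were initiated with intratracheal Lenti-Cre in female mice that all carried Lkb1XTR/XTR and Rosa26LSL-tdTomato, and grew for 16 weeks. Cre switches on the tdTomato reporter in the cells it reaches, and inverts the XTR gene trap so that Lkb1, a tumor-suppressor kinase gene, is silenced. The 2 Restored mice also carried FLPo-ERT2 at Rosa26, a recombinase that removes the trap and so restores Lkb1 once tamoxifen is given, and the 2 Non-Restored mice lacked it. According to the treatment description, tamoxifen in 4 mg doses was given for 2 weeks before harvest, and cells were sorted only for exclusion of DAPI, so tumor, stromal and immune cells were all present. The counts of the 4 mice form 1 pooled matrix, and which mouse a cell came from was not known here. Restored and Non-Restored tumors were therefore not compared, the matrix was treated as 1 sample without replicates, and no p-value is given. Intervals are exact 95% intervals and cover counting error only, and a difference between cell classes may include unequal contributions of the mice.

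ATII cells line the alveoli, make the surfactant that keeps them open, and act as the progenitors of the flat alveolar type I (ATI) cells through which gas is exchanged. They also release a set of host-defense proteins into the airspace. Acute-phase proteins are secreted proteins, made mainly by the liver, whose output changes in inflammation under interleukin-6, interleukin-1 and related cytokines, with STAT3, NF-kB and C/EBP factors acting on their genes. Itih4, Lrg1, Lcn2 and the complement component Hc are usually counted with this response, Chil1 rises in many inflamed tissues, and Cxcl15, Wfdc2, Rnase4 and Ang are better known as products of epithelium than as acute-phase proteins.

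To show the regulatory sequence next to these genes, the 250 bases before the transcription start were taken from RefSeq windows on build GRCm38.p6, in which all 9 members were matched. The windows span 300 bases, of which the last 50 follow the start and were searched but are not shown. They were searched on both strands for words of factors known from acute-phase and lung genes: TTGCNNAA for C/EBP, TTCNNNGAA for STAT, GGGNNTTCC for NF-kB, and CACTTG or CACTCA for NKX2. The windows of Lcn2, Itih4, Rnase4 and Ang are shown because they hold a word of the first 3 kinds, in capitals, and that of Cxcl15 because it is the most abundant member by UMIs and holds none of the words. Each runs 5′ to 3′ on the strand of its gene.
Lcn2, chr2:32387740-32387989, minus strand: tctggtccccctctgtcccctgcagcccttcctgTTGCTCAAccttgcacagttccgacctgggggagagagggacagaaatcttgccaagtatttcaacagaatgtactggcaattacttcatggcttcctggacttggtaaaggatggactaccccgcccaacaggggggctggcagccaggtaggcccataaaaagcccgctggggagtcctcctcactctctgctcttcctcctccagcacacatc
Itih4, chr14:30886226-30886475, plus strand: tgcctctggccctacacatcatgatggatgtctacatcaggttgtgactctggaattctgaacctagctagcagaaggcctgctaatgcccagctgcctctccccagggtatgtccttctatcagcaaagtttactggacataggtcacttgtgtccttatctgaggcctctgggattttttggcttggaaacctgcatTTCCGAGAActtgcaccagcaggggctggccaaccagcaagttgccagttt
Rnase4 and Ang, shared window, chr14:51090827-51091076, plus strand: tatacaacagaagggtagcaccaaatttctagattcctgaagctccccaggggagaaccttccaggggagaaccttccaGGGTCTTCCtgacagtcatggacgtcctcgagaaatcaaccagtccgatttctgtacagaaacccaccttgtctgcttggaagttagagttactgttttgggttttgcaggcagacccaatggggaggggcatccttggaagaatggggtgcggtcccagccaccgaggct
Rnase4, second window, chr14:51095750-51095999, plus strand: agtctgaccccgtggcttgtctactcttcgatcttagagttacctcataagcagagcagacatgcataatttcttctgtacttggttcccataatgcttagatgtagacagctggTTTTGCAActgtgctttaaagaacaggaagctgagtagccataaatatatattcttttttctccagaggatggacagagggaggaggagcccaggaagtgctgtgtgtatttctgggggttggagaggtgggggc
Cxcl15, chr5:90794284-90794533, plus strand: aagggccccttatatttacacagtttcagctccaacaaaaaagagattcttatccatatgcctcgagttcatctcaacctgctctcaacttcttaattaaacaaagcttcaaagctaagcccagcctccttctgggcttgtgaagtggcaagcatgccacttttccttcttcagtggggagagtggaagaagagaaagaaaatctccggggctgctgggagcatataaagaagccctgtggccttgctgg

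The C/EBP word lay in the windows of 2 members, at bases -216 to -209 of Lcn2 and at -135 to -128 of the second Rnase4 window, where base 0 is the start. Of all 32851 RefSeq windows, 10.8% held it. The STAT word lay in 1 member, at -51 to -43 of Itih4, against 8.30% of all windows. The NF-kB word lay in the window that Ang and Rnase4 share, at -171 to -163 and again, on the opposite strand, at 0 to 8, against 5.82% of all windows. An NKX2 word was found for Itih4, Lcn2 and Wfdc2, and in 27.5% of all windows. No words of different kinds overlapped in these windows. The windows of Chil1, Lrg1, Hc and Cxcl15 held none of the words, which says only that these letters are not in these 300 bases.

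Unique molecular identifiers (UMIs) number 58624795 in the 20351 cells of the matrix, with a median of 1960 per cell, and 19488 cells passed the filters. Cells were placed in 12 classes by 8 marker genes per class, with 1592 cells left out as mixed and 1589 as unassigned. Of 37 markers kept out of this assignment, 34 were highest in their own class. The 972 epithelial cells, with a median of 3922 UMIs, held Sftpc at 84029.5 counts per 1000000 UMIs of the class (CPM) and TdTomato at 5001 CPM, and the assignment does not separate tumor cells from other epithelium. Median depth differed between the classes that matter most below, at 908 UMIs in neutrophils, 1861 in endothelial cells, 4206 in C1q macrophages and 5450 in alveolar macrophages.

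Summed over the 9 members, epithelial cells had 9224 CPM (9131 to 9318), neutrophils 3701 CPM (3625 to 3778) and endothelial cells 1101 CPM (1068 to 1135), and the remaining 9 classes had between 9.38 and 366 CPM. Epithelial cells were 4.99% of the kept cells and held 64.4% of the members' UMIs. By CPM, 7 of the 9 members were highest in epithelial cells, and Lcn2 and Lrg1 were highest in neutrophils. With a minimum of 500 genes per cell, Lrg1 was highest in endothelial cells instead. Among 5922 genes at 50 CPM or more in any class, 8.21% were highest in epithelial cells. Of the 8 members that reach 50 CPM, 6 are among these, and Ang stays below that minimum. Itih4, Chil1, Hc, Cxcl15 and Wfdc2, or 5 of 9, were at least 4-fold over the next class after 10 CPM was added to both, against 1.98% of the tested genes. Both counts follow from the way the members were chosen. Leaving out cells that held any gate gene of another class kept 371 of the 972 epithelial cells, at a median of 2683 UMIs, and lowered the epithelial level of each member but Wfdc2.

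**Figure D1:**
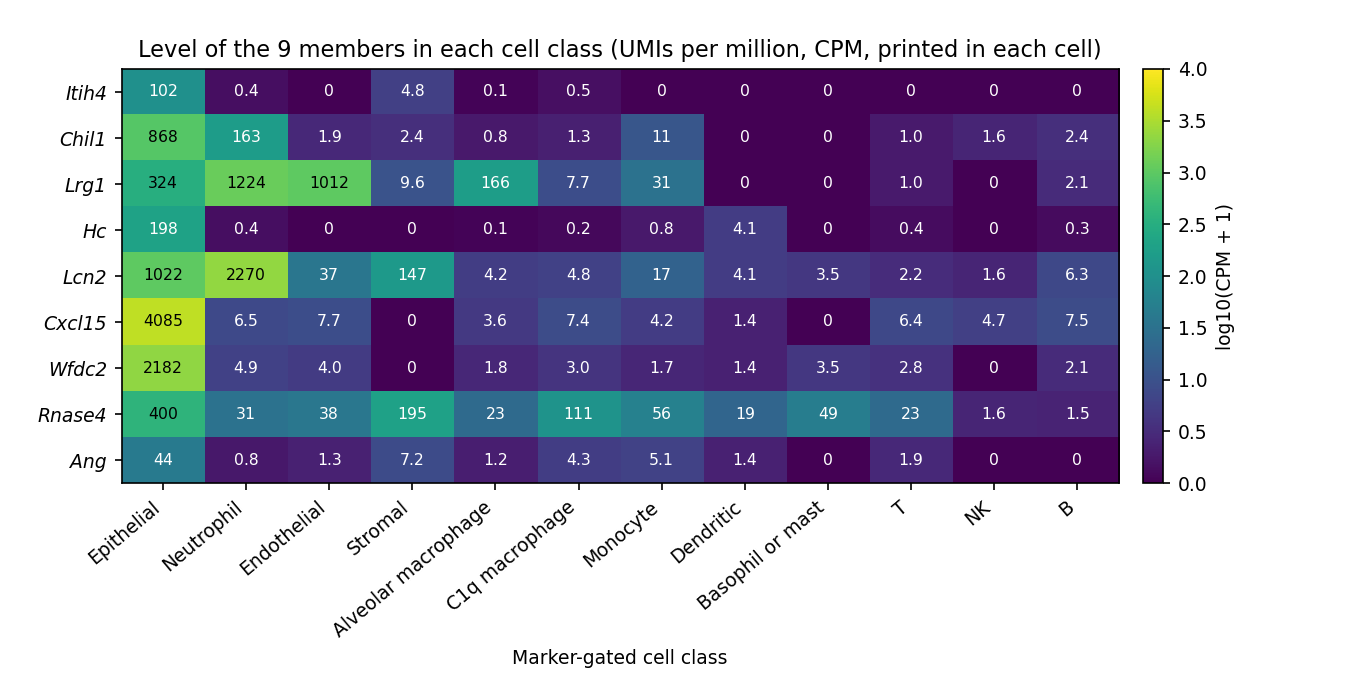
Level of each member (rows) in 12 marker-gated cell classes (columns), in CPM, printed in each cell and coloured by log10(CPM + 1). The epithelial column is the highest for 7 members, and Lrg1 (1224 CPM) and Lcn2 (2269.8 CPM) are highest in neutrophils.

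The label of the set as acute-phase proteins of tumor cells was thus borne out only in part. Itih4, Hc, Cxcl15 and Wfdc2 had 94.1% to 94.7% of their UMIs in epithelial cells, and Chil1 had 84.7%. Ang had 63.1% there and Rnase4 43.6%. Lcn2 had 37.6% of its UMIs in epithelial cells and 50.4% in neutrophils, and Lrg1 had 12.3% in epithelial cells, 35.6% in endothelial cells and 28.03% in neutrophils. The members are called secreted proteins below.

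**Figure D2:**
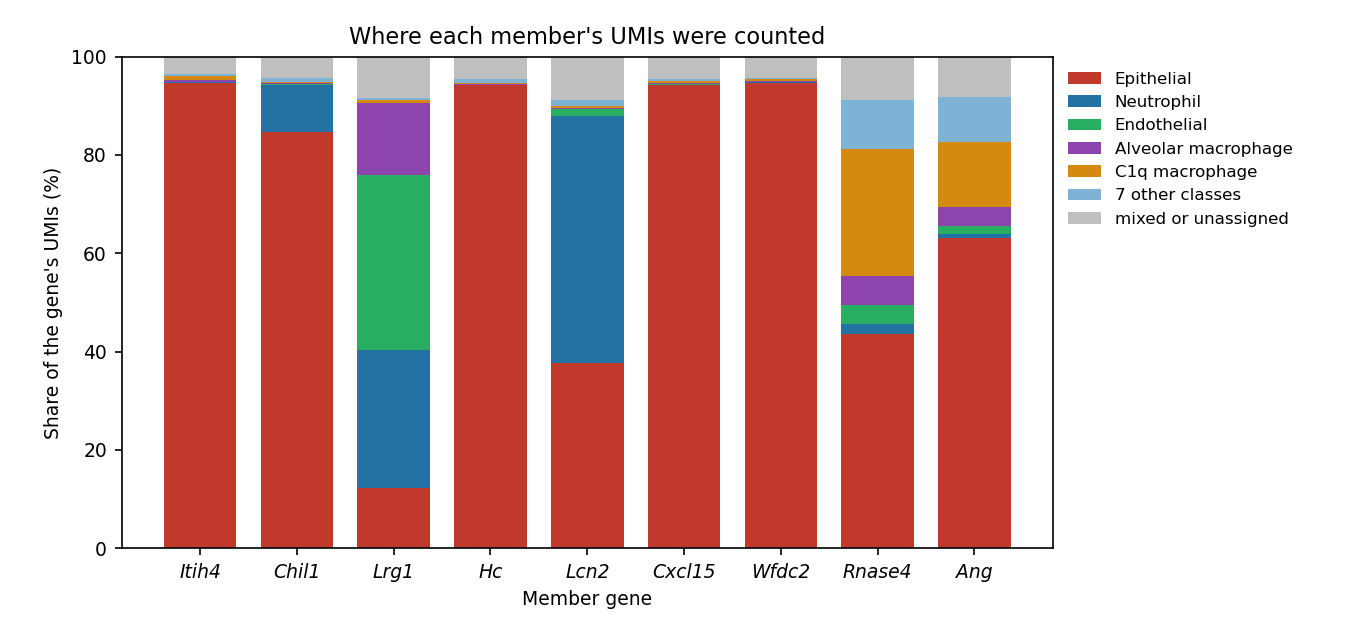
Share of each member's UMIs (y axis, percent of all its UMIs in the kept cells) by the cell class they were counted in. Epithelial cells (red) hold over 84% of the UMIs of Itih4, Chil1, Hc, Cxcl15 and Wfdc2 but 12.3% of those of Lrg1 and 37.6% of those of Lcn2.

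In droplet data, RNA released by broken cells adds UMIs of abundant epithelial genes to every class. The surfactant genes Sftpc, Sftpb, Sftpa1 and Sftpd, which other classes should lack, served as the measure of this. In the 11 other classes each surfactant gene stood at 0.0194% to 0.217% of its epithelial level. A member was counted above this background in a class when the lower bound of its own percentage lay over the upper bound of each surfactant gene. That was so for 32 of 99 pairs of member and class, and for 19 when cells with any gate gene of another class were left out. Itih4, Cxcl15 and Wfdc2 were above background in 0 of 11 classes, Hc in 1, through 3 UMIs in dendritic cells, and Chil1 in 2. Lrg1 and Lcn2 were above it in 7 classes each, Ang in 6 and Rnase4 in 9. Pairs with 0 UMIs were counted as not above, so for the sparse Itih4 the rule could show little. In stromal cells its 2 UMIs stood at 4.73% of its epithelial level (0.571 to 17.2), with a surfactant upper bound of 0.615%. The measure covers RNA freed from epithelial cells only. Epithelial cells held 12.3% of the Lrg1 UMIs, 37.6% of those of Lcn2 and 43.6% of those of Rnase4. For these genes, RNA freed from other classes was not measured, so a low level above the background need not come from the class itself.

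**Figure D3:**
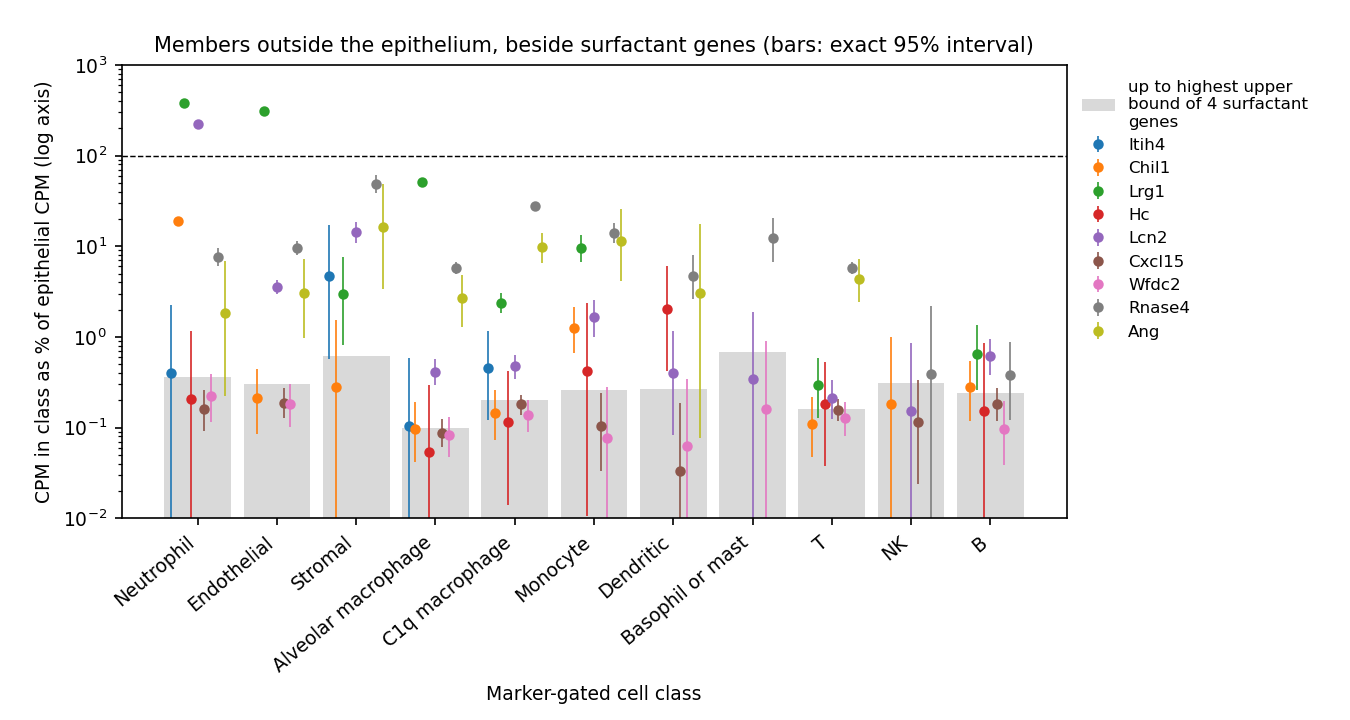
CPM of each member in the 11 classes other than epithelial cells, as a percentage of its epithelial CPM (y axis, log scale), with exact 95% intervals. Grey bars reach up to the highest upper bound of the 4 surfactant genes in that class, the dashed line marks the epithelial level, and pairs with 0 UMIs are not drawn. Lrg1 in neutrophils and endothelial cells and Lcn2 in neutrophils lie above the dashed line, and the lower bounds of Itih4, Cxcl15 and Wfdc2 lie above no grey bar.

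Of the members tied to serum inter-alpha-trypsin inhibitor and complement, Itih4 (ENSMUSG00000021922, chromosome 14, 30886476 to 30902353, plus strand, GENCODE vM21 on mm10) encodes a heavy-chain-related plasma protein. It stood at 102 CPM (92.1 to 112, 412 UMIs) in epithelial cells, and the next class was stromal cells with 4.81 CPM from 2 UMIs. Hc (ENSMUSG00000026874, chromosome 2, 34983331 to 35061438, minus strand) encodes complement component C5, whose cleavage gives the neutrophil attractant C5a. It stood at 198 CPM (185 to 213, 804 UMIs), and a second gene, Gm13449, overlaps it on the opposite strand. The next class was dendritic cells at 4.07 CPM from 3 UMIs (0.840 to 11.9). To compare shares of cells at equal depth, 1000 UMIs were drawn from each cell that had as many. Among the 938 epithelial cells drawn in this way, 5.65% had an Itih4 UMI and 10.9% an Hc UMI, against 14.0% and 26.3% of the 972 cells at full depth.

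Chil1 (ENSMUSG00000064246, chromosome 1, 134182176 to 134190181, plus strand) encodes a chitinase-like lectin without enzyme activity. It stood at 868 CPM (839 to 897) in epithelial cells and at 163 CPM (147 to 179) in neutrophils, a log2 ratio of 2.42 (2.27 to 2.57). When cells with a gate gene of another class were left out, the epithelial level was 447 CPM (408 to 488) and the ratio 0.88 (0.50 to 1.27), which no longer met the 4-fold limit. Monocytes had 10.97 CPM (5.84 to 18.8) and the other 9 classes 2.41 CPM or less. In thinned cells, 30.7% of epithelial cells and 14.8% of 779 neutrophils had a Chil1 UMI, against 0.238% of B cells. The neutrophil level was thus spread over more cells than the background reached.

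Lcn2 (ENSMUSG00000026822, chromosome 2, 32384633 to 32388252, minus strand) encodes lipocalin 2, which starves bacteria of iron by binding their siderophores and is stored in neutrophil granules. Epithelial cells had 1022 CPM (991 to 1054, 4142 UMIs) and neutrophils 2269.8 CPM (2211 to 2330.3, 5556 UMIs), a log2 ratio of -1.15 (-1.21 to -1.09). Without cells that held a gate gene of another class, the ratio was -2.32 (-2.47 to -2.17). Counted per cell the order turned, with 4.26 Lcn2 UMIs per epithelial cell and 3.02 per neutrophil, since neutrophils had fewer UMIs in all. After thinning, 31.3% of epithelial cells and 62.8% of neutrophils had an Lcn2 UMI. Stromal cells came next at 147 CPM (112 to 189), but their 61 UMIs lay in 5.93% of the 118 cells. Endothelial cells had 36.7 CPM (30.8 to 43.3), and the other 8 classes had 16.9 CPM or less.

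Lrg1 (ENSMUSG00000037095, chromosome 17, 56119678 to 56122001, minus strand) encodes a leucine-rich glycoprotein that acts on TGF-beta signalling in vessels. It was the member least tied to the epithelium. Neutrophils had 1224 CPM (1181 to 1269), endothelial cells 1012 CPM (979.8 to 1044), epithelial cells 324 CPM (306 to 342) and alveolar macrophages 166 CPM (157 to 174), and none of these intervals overlap. The order of the first pair turned with a minimum of 500 genes per cell, to 892 CPM (847 to 940) in neutrophils and 1014 CPM (982 to 1047) in endothelial cells. The epithelial level was 100.01 CPM (82.3 to 120) when cells with a gate gene of another class were left out. Per cell, endothelial cells had 2.09 Lrg1 UMIs, neutrophils 1.63, epithelial cells 1.35 and alveolar macrophages 0.890. In thinned cells, 56.0% of neutrophils, 51.8% of endothelial cells, 15.6% of alveolar macrophages and 11.6% of epithelial cells had an Lrg1 UMI. The alveolar macrophage level was 51.1% of the epithelial level (47.5 to 55.1), while surfactant genes in the same cells stood at no more than 0.0789% of theirs. Alveolar macrophages also held TdTomato at 2719.7 CPM, and the study left out reporter-positive cells outside the epithelium. Lrg1 stood at 134 CPM (101 to 174) in the 91 alveolar macrophages without a TdTomato UMI and at 167 CPM (159 to 176) in the 1612 with 2 or more.

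Cxcl15 (ENSMUSG00000029375, chromosome 5, 90794534 to 90803067, plus strand) encodes lungkine, a lung chemokine that draws neutrophils, and Gm24322 overlaps it on the opposite strand. Wfdc2 (ENSMUSG00000017723, chromosome 2, 164562413 to 164568510, plus strand) encodes a whey-acidic-protein-domain protein of airway and other epithelia. Cxcl15 stood at 4085 CPM (4023 to 4148) in epithelial cells and at 7.71 CPM or less in each other class. Wfdc2 stood at 2182 CPM (2137 to 2228), and at 4.90 CPM or less elsewhere. Epithelial cells exceeded the next class by 9.05 for Cxcl15 (8.53 to 9.63) and by 8.80 for Wfdc2 (7.99 to 9.75) on the log2 scale, and neither gene was above the surfactant background in another class. In thinned epithelial cells, 55.5% had a Cxcl15 UMI and 78.1% a Wfdc2 UMI.

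Rnase4 (ENSMUSG00000021876, chromosome 14, 51091077 to 51106151, plus strand) and Ang (ENSMUSG00000072115, chromosome 14, 51091150 to 51102009, plus strand) encode secreted ribonucleases of the RNase A family, the latter being angiogenin, which cuts tRNA and promotes vessel growth. The genes overlap on the same strand and share the first promoter window shown above, and Ang has close relatives, so the split of reads between them depends on the counting and the values are uncertain. Rnase4 stood at 399.5 CPM (380.3 to 419) in epithelial cells, 195 CPM (155 to 242) in stromal cells, 111 CPM (104 to 118) in C1q macrophages and 55.7 CPM (43.1 to 70.8) in monocytes. Its log2 ratio of epithelial cells to the next class was 1.04 (0.71 to 1.38), and 0.12 (-0.13 to 0.36) without cells holding a gate gene of another class. Ang stood at 43.9 CPM (37.7 to 50.9) in epithelial cells and at 7.22 CPM or less elsewhere. Of the UMIs of both genes, Ang made up 9.91% in epithelial cells (8.56 to 11.4, of 1797) and 3.70% in C1q macrophages (2.62 to 5.07, of 999). These intervals do not overlap, whereas that of stromal cells (0.743 to 10.1, of 84) overlaps both.

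Within the epithelium, cells were sorted by the share of their UMIs from the 4 surfactant genes, with 2% as the limit, and by 2 or more of 8 ATI genes. Surfactant-high cells without ATI genes numbered 404, surfactant-high cells with ATI genes 291 and low-surfactant cells with ATI genes 141. Cells called without ATI genes had fewer than 2 of them. A further 22 cells were ciliated and 7 were club cells, and 107 cells fell below both the surfactant and the ATI limit. Of the latter, 68.2% had 2 or more of 4 immune genes, against 1.03% to 2.84% in the 3 main states. These 107 cells were therefore kept out of the comparisons of states below except where named. Values over all epithelial cells, including the correlations, still hold them. Median depth was 4261.5, 4166 and 2233 UMIs in the 3 main states. With ciliated and club cells left out, 50 epithelial cells had a surfactant share between 1% and 4%. TdTomato stood at 5629, 5898 and 6164 CPM in the 3 main states.

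Apart from Wfdc2, the members were, like the surfactant genes, lower in low-surfactant cells with ATI genes than in both surfactant-high states. Between the surfactant-high states, without and then with ATI genes, the surfactant genes had no common course. Sftpc fell from 119755 to 101839 CPM and Sftpa1 from 15723.8 to 13264 CPM. Sftpb stood at 9153.8 and 9018 CPM, and Sftpd rose from 3492.5 to 3883.9 CPM. The 8 members other than Wfdc2 summed to 11157 CPM in surfactant-high cells and 6744 CPM in those with ATI genes. In low-surfactant cells with ATI genes these members summed to 119 CPM. The difference between the first and the last was 6.55 on the log2 scale (6.13 to 7.002). With Wfdc2, which gave 1050 of the 1095 member UMIs in the last state, it was 2.19 (2.11 to 2.28). Of the members, 8 of 9 were 2-fold or more higher in surfactant-high cells after 10 CPM was added, against 7.29% of 3058 genes tested. When all surfactant-high cells were set against all surfactant-low cells, the 107 included, the count was again 8 of 9, against 9.47% of 2987 genes. Wfdc2 was 1.59-fold higher in that contrast, whose low side holds the 107 cells at 436 CPM of Wfdc2. Both contrasts are close to the ATII-like contrast that picked the members, and nothing is read from these shares.

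Lcn2 had a wide range across the states. It stood at 1707 CPM (1646 to 1769) in surfactant-high cells, at 855 CPM (805 to 907) in those with ATI genes and at 5.30 CPM, from 2 UMIs, in low-surfactant cells with ATI genes. Lrg1 stood at 598 CPM (562 to 635) and 178 CPM (156 to 203) in the surfactant-high states, with 0 UMIs in the low-surfactant state. Itih4 stood at 167 CPM (149 to 188) and 87.6 CPM (72.0 to 105), again with 0 UMIs in the low-surfactant state. The limit set for 0 UMIs there, at 3 UMIs for the state, is 7.96 CPM, while the exact upper bound is 9.78 CPM. Against the limit of 7.96 CPM, Lrg1 was 75.1-fold and Itih4 21.0-fold higher in surfactant-high cells, and somewhat less against the exact bound. Hc stood at 297 CPM (272 to 323), 222 CPM (196 to 249) and 5.30 CPM from 2 UMIs, and Chil1 at 1373 CPM (1318 to 1429), 854 CPM (804 to 907) and 18.6 CPM from 7 UMIs.

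On the log2 scale Lcn2 differed by 8.33 (6.48 to 11.38) between surfactant-high and low-surfactant cells with ATI genes, and Cxcl15, at 6360.5 and 47.7 CPM, by 7.06 (6.40 to 7.81). Sftpc, whose share helped to define the states, differed by 5.71 (5.61 to 5.80), below both intervals. The other surfactant genes differed less, Sftpa1 by 5.25 (5.02 to 5.48), Sftpb by 2.81 (2.68 to 2.94) and Sftpd by 2.32 (2.15 to 2.51). Chil1 differed by 6.21 (5.16 to 7.52) and Hc by 5.81 (3.95 to 8.85), and those intervals hold the Sftpc value. Rnase4, at 586 and 39.8 CPM, differed by 3.88 (3.15 to 4.72), and Ang, at 68.9 CPM and 1 UMI, by 4.70 (2.19 to 10.01).

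Wfdc2 went the other way across the 3 main states. It stood at 2139 CPM (2071 to 2208) in surfactant-high cells, 2543 CPM (2456 to 2632) in those with ATI genes and 2785 CPM (2619 to 2959) in low-surfactant cells with ATI genes, a log2 difference of -0.38 (-0.48 to -0.28) between the first and the last. In thinned cells, 82.6%, 87.5% and 84.8% of these states had a Wfdc2 UMI, and 53.3%, 30.4% and 0% had an Lcn2 UMI. The exact upper bound for 0 of 132 cells is 2.76%. Ciliated cells had 4674 CPM of Wfdc2 (4234 to 5146) and club cells 2646 CPM (2279 to 3057), from 22 and 7 cells. Club cells also held Cxcl15 at 1931 CPM (1619 to 2286), Lcn2 at 729.6 CPM (543 to 959) and Lrg1 at 443 CPM (301 to 629), whereas ciliated cells had 33.9 CPM or less of these 3 genes. After thinning, 14.3% of the 7 club cells had an Lcn2 UMI, so the club level of Lcn2 rests on very few cells.

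**Figure D4:**
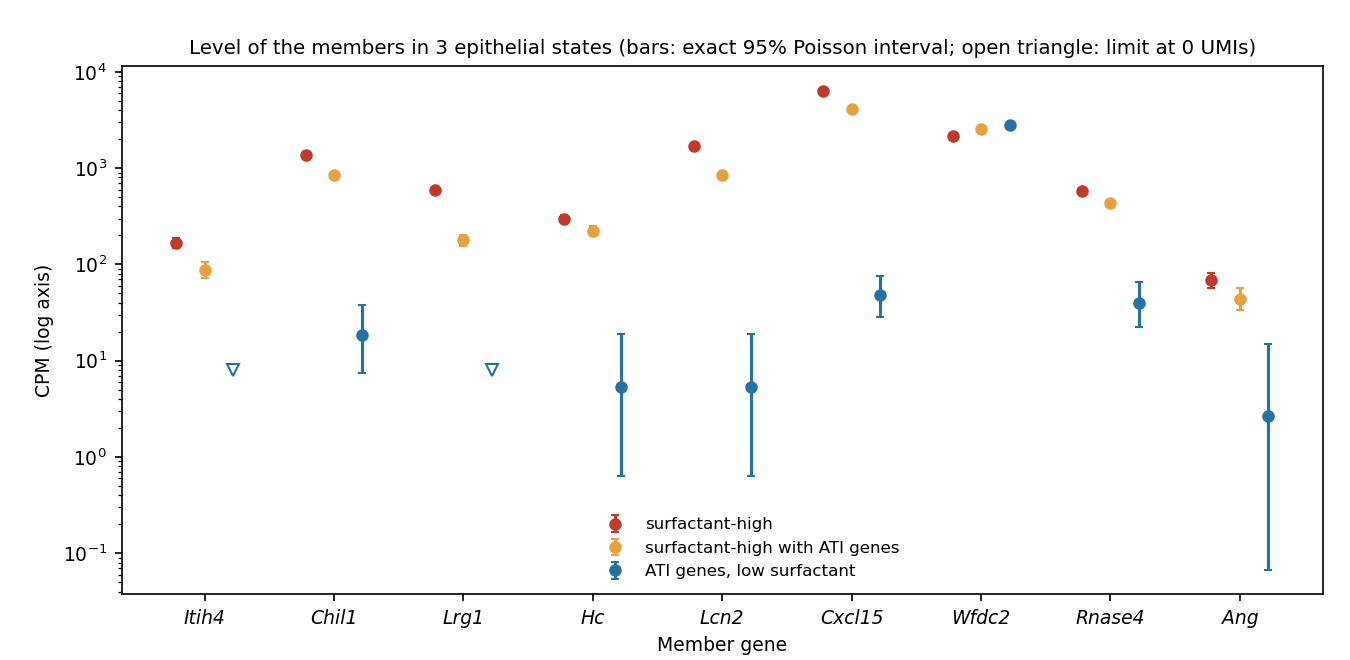
Level of each member (CPM, log axis) in surfactant-high epithelial cells (red, 404 cells), surfactant-high cells with ATI genes (orange, 291 cells) and low-surfactant cells with ATI genes (blue, 141 cells), with exact 95% Poisson intervals; open triangles mark the limit of 7.96 CPM where 0 UMIs were counted. Each member but Wfdc2 falls from red to orange to blue.

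The step between the surfactant-high states was smaller. Lrg1 was 3.35-fold higher in cells without ATI genes, or 1.75 on the log2 scale (1.54 to 1.96). Lcn2 was 1.996-fold higher, or 1.00 (0.90 to 1.10), just under the limit of 2, and Itih4 was 1.91-fold higher, or 0.94 (0.62 to 1.26). Chil1, Cxcl15, Ang, Rnase4 and Hc were 1.34-fold to 1.61-fold higher, and Wfdc2 was 0.841-fold. With 10 CPM added, 1 of 9 members, Lrg1, passed a 2-fold difference, against 0.318% of 2515 genes, while Sftpc differed 1.18-fold. Lrg1 was among the members picked by their level in ATII-like cells, so nothing is read from this count. This step changed in size when cells with a gate gene of another class were left out, which kept 118 and 132 cells of these states. On the log2 scale it was then 2.29 for Lrg1 (1.54 to 3.10), 1.82 for Lcn2 (1.56 to 2.09), 1.45 for Hc (0.78 to 2.16) and 0.09 for Chil1 (-0.18 to 0.35), and the intervals of Lrg1, Lcn2 and Hc overlapped.

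Among the surfactant-high cells themselves, members were spread unequally. In 674 such cells thinned to 1000 UMIs, the median cell had 3 UMIs of Cxcl15 and 2 of Wfdc2, and 24.6% and 15.3% of cells had none. The other 7 members had a median of 0. Lrg1 and Hc were missing from like shares of cells, 84.1% and 85.01%, but the cells with most UMIs reached 9 for Lrg1 and 3 for Hc. Lrg1, with 234 UMIs, had 82.9% of them in the 67 highest cells, and Rnase4, with 308 UMIs, had 51.6%. For Lcn2 that share was 53.8% of 806 UMIs and for Chil1 52.9% of 703.

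Across 938 thinned epithelial cells, Pearson's r between members ran from -0.02 to 0.59 over 36 pairs, with a median of 0.193. The highest values were those of Lcn2 with Cxcl15 (0.59), Chil1 with Lcn2 (0.57) and Chil1 with Cxcl15 (0.50). Cells of all states shared 1 matrix, the cells below both the surfactant and the ATI limit included, so these values hold the differences between states. Within the 385 surfactant-high cells without ATI genes the median fell to 0.100, with Chil1 and Lcn2 at 0.45, Chil1 and Lrg1 at 0.40, Lcn2 and Cxcl15 at 0.38 and Lrg1 and Lcn2 at 0.31. Wfdc2 stayed between -0.06 and 0.01 with each other member there. Itih4, with 80 UMIs after thinning, and Ang, with 37, are too sparse for their low values to be read.

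**Figure D5:**
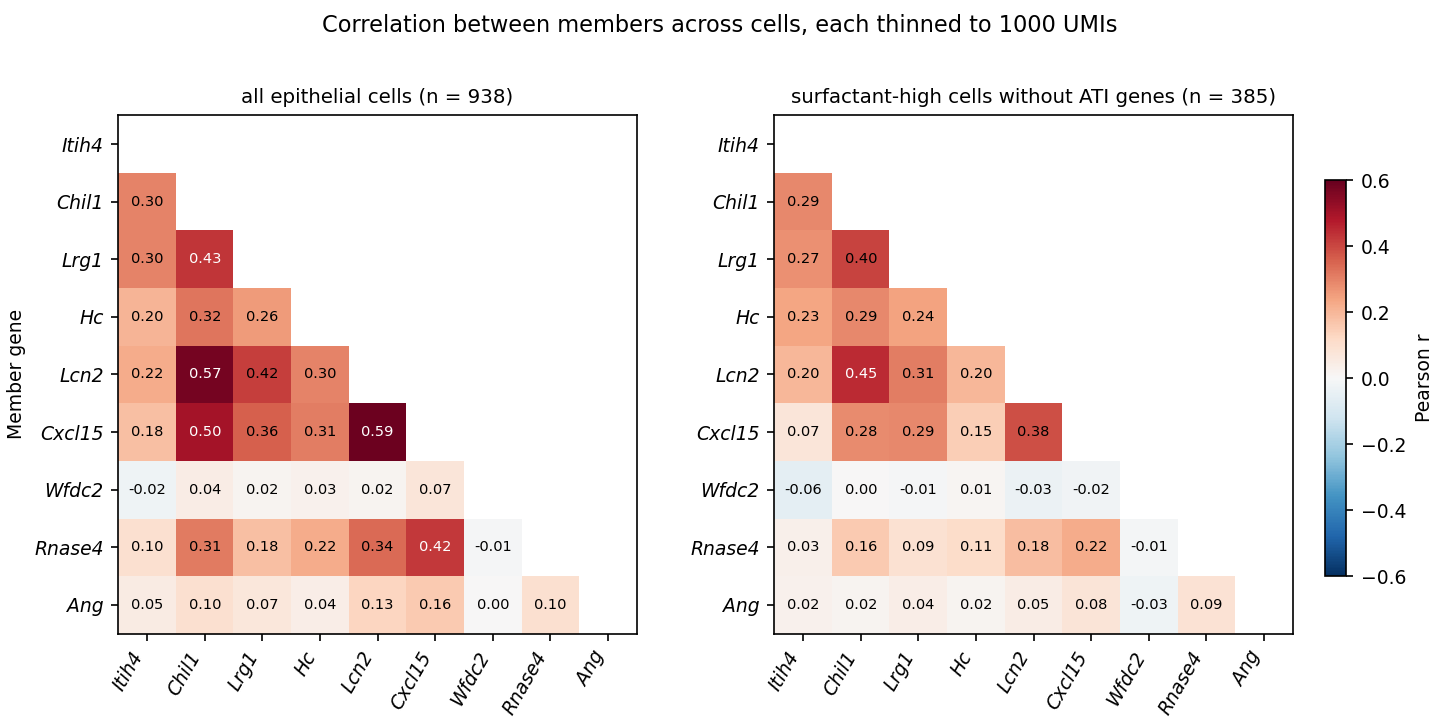
Pearson's r between pairs of members across all thinned epithelial cells (left, 938 cells) and across surfactant-high cells without ATI genes (right, 385 cells). The highest value is that of Lcn2 with Cxcl15 on the left (0.59) and of Chil1 with Lcn2 on the right (0.45), and the Wfdc2 values are near 0 on both sides.

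The genes with the most similar pattern to each member were taken from 523 genes over the same 938 cells. Lyz2, the lysozyme of ATII cells and macrophages, came first for Itih4 (0.20), Chil1 (0.519), Lrg1 (0.375), Hc (0.328), Lcn2 (0.533) and Rnase4 (0.397). Fasn and Slc34a2 followed for Itih4, Sftpa1 and Scd1 for Chil1, Scd1 and Sftpa1 for Lcn2, Lpcat1 and Slc34a2 for Hc, and Sftpa1 and Slc34a2 for Rnase4. For Cxcl15 they were Scd1 (0.708), Slc34a2 (0.708) and Sftpa1 (0.694). Slc34a2 is a phosphate transporter, and Fasn, Scd1 and Lpcat1 make lipids, and ATII cells use all 4 for surfactant or its turnover. For Lrg1 they were, after Lyz2, Fabp5 (0.353), a fatty-acid-binding protein, and Dlk1 (0.297). Wfdc2 was led by the TdTomato reporter (0.367), Sftpb (0.271) and Sftpd (0.262), and Ang by Dlk1, Meg3 and Sfta2, at 0.181 or less. The 938 cells include 104 of those below both the surfactant and the ATI limit. In that group Wfdc2 stood at 436 CPM and TdTomato at 1025 CPM, each below its level in the 3 main states. What these cells add to the r of 0.367 was not tested. Within the 674 surfactant-high cells alone the orders changed in part. Tmsb4x came first for Wfdc2 (0.176) and H2-Eb1 for Itih4 (0.166), and Lcn2 was followed after Lyz2 by Dmkn (0.348) and Dlk1 (0.340). Lyz2, Fabp5 and Dlk1 stayed the first 3 for Lrg1.

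In neutrophils, Lcn2, Lrg1 and Chil1 were likewise uneven. After thinning, 37.2% of 779 neutrophils had no Lcn2 UMI, and the 77 highest cells held 41.5% of the Lcn2 UMIs, with up to 26 in a cell. The 2068 Lcn2 UMIs and 909 Lrg1 UMIs there gave an r of 0.290, Lcn2 and Chil1 an r of 0.182, and Lrg1 and Chil1 an r of 0.064. In 1640 endothelial cells the 164 highest cells held 40.9% of the Lrg1 UMIs. The thinning left out 1063 shallower neutrophils, so these values are of the deeper cells.

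The members were next set beside other genes of their pathways. Of 30 other acute-phase genes, 21 had a UMI and 7 reached 50 CPM in a class, of which 1, the metallothionein gene Mt2, was highest in epithelial cells (453 CPM). Against 8.21% of all tested genes, nothing is read from that count. Mt1 stood at 2894 CPM in epithelial cells and 3689.7 CPM in C1q macrophages. Haptoglobin (Hp) stood at 1803 CPM in neutrophils and 549.8 CPM in epithelial cells. Saa3 (255 CPM), Serpina3n (459.6 CPM), C3 (472 CPM) and ceruloplasmin (Cp, 508 CPM) were highest in stromal cells, with 2.47, 0.247, 45.9 and 7.90 CPM in epithelial cells. Saa1, the classic serum amyloid gene of liver, had 1 UMI in all cells. C3 ran with the surfactant-high state, at 72.9, 34.7 and 7.96 CPM in the 3 main states, and Hp at 532, 575 and 308 CPM. Of 14 other genes of ATII or club cells, which were listed as epithelial products and include the lipid gene Scd1, 12 reached 50 CPM in a class. Among these 12, 11 were highest in epithelial cells, against the same 8.21%. That count follows from how the list was drawn up, and nothing is read from it.

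Of 8 cytokines that drive acute-phase genes, 5 reached 50 CPM in a class and 0 were highest in epithelial cells, against 8.21% of all tested genes, and nothing is read from so few genes. Il6 (1999 CPM) and Osm (2450.2 CPM) were highest in basophils or mast cells, and Il1b (9912 CPM) in neutrophils. In epithelial cells they stood at 11.4, 6.17 and 224 CPM. Il1b was at 11.4, 16.6 and 69.0 CPM in the 3 main epithelial states, below its level in the class as a whole. Of its 907 epithelial UMIs, 20 lay in surfactant-high cells and 26 in low-surfactant cells with ATI genes, so 224 CPM is not a level of these states. Osm was at 0, 0 and 5.3 CPM in the 3 main states. Of 14 receptor and signalling genes, 13 reached 50 CPM in a class and 0 were highest in epithelial cells, and nothing is read from this count against 8.21% of all tested genes. Epithelial cells had Il6st, the shared receptor chain of this family, at 40.5 CPM, Osmr at 22.2 CPM, Il6ra at 12.1 CPM, Stat3 at 132 CPM and its feedback inhibitor Socs3 at 141 CPM. Stat3 stood at 146, 121 and 109 CPM in the 3 main epithelial states. The activity of STAT3 was not measured, and its part in the levels of the members was not tested.

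Of the 6 C/EBP genes, 5 reached 50 CPM in a class and 0 were highest in epithelial cells, again too few to read against 8.21%. Cebpa, the family member that drives ATII and myeloid maturation, stood at 125 CPM in epithelial cells, next to 139.8 CPM in basophils or mast cells. It was at 182, 129 and 29.2 CPM in the 3 main states, a log2 difference of 2.64 (1.78 to 3.65) between the first and the last. Cebpb, at 124, 136 and 125 CPM, differed by -0.01 (-0.47 to 0.48), and Cebpd, at 173, 167 and 98.1 CPM, by 0.82 (0.32 to 1.35).

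Of the known partners of the members, 9 reached 50 CPM in a class and 1, Lrp2, was highest in epithelial cells, a count near the 8.21% of all tested genes. C5ar1, the receptor of C5a, was highest in neutrophils at 413 CPM, with 0.740 CPM in epithelial cells where Hc was counted. Cxcr2, the receptor of the chemokine family to which Cxcl15 belongs, stood at 1244 CPM in neutrophils and 0.494 CPM in epithelial cells, but it was also a gene used to place neutrophils. Acvrl1 (511 CPM) and Eng (424 CPM), receptor chains through which Lrg1 acts, were highest in endothelial cells, where Lrg1 itself stood at 1012 CPM. Tgfbr2, a further receptor of this pathway, was highest in stromal cells (387 CPM) and stood at 95.4 CPM in endothelial cells. Lrp2, the endocytic receptor megalin that takes up lipocalin 2, was highest in epithelial cells. It stood at 140.2 CPM in epithelial cells and 0.532 CPM in endothelial cells, the next class, and at 197, 168 and 18.6 CPM in the 3 main epithelial states. Plxnb2, a receptor of angiogenin, stood at 89.6 CPM in epithelial cells and 109 CPM in monocytes.

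Relatives of the members were placed differently. Chil3, a chitinase-like gene of macrophages, stood at 26306 CPM in alveolar macrophages and 120.4 CPM in epithelial cells, whereas Chia1, an active chitinase, stood at 77.0 CPM in epithelial cells and 0.409 CPM in neutrophils, the next class. Slpi, a whey-acidic-protein inhibitor of neutrophil elastase, stood at 1008 CPM in alveolar macrophages and 306 CPM in epithelial cells, and in the epithelium it ran with surfactant (433, 361 and 37.1 CPM in the 3 main states), unlike Wfdc2. Cxcl2 stood at 5295 CPM in C1q macrophages and 201 CPM in epithelial cells. It stood at 40.4, 18.1 and 281 CPM in the 3 states, the opposite order to that of Cxcl15 at its ends. Of its 814 epithelial UMIs, 71 lay in surfactant-high cells and 106 in low-surfactant cells with ATI genes, so 201 CPM is not a level of these states. The macrophage gene Chil3 stood at 154, 20.5 and 316 CPM in the 3 states. Whether Cxcl2 there came from macrophage RNA was not tested. None of the 6 other lipocalin genes listed reached 50 CPM in a class.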

How the data were processed

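Viable cells of lung tumors from 2 Restored and 2 Non-Restored mice were profiled by 10x Genomics 3′ single-cell RNA-seq. The authors deposited raw UMI counts for all 4 mice in 1 matrix of 58624795 UMIs, produced by Cell Ranger (version 3.0.2) on the mm10 build, with GFP and TdTomato as extra features. The sources used here do not give the annotation release; gene positions are from GENCODE vM21 on mm10. A further allele that all 4 mice carried is not reported here. Because cells could not be traced to a mouse, neither depth nor levels are given by mouse.

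Members and lists were chosen with earlier results of these data known. Cells with at least 200 genes were kept, and upper cut-offs were set at the 98th percentile of genes (2713) and of the mitochondrial share over 13 genes (13.4%), leaving 19488 cells. A cell joined the class with most of its 8 gate genes, at least 2, and was left out as mixed when another class had more than 50% as many. Doublets were not removed; Scrublet (scanpy 1.11.5) called 181 of 20299 cells, or 0.892%, and removing them was an alternative. The study removed tdTomato-positive cells outside the epithelium, which was done only as an alternative.

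CPM is the UMIs of a gene per 1000000 UMIs of the class, with exact Poisson intervals; ratios have exact conditional intervals and shares exact Clopper-Pearson ones, all at 95% (scipy 1.17.1, Python 3.11.15). The CPM limit given for a count of 0 corresponds to 3 UMIs and lies below the exact upper bound. A pseudocount of 10 CPM was used for fold counts over genes at 50 CPM or more. Correlations used log(1 + UMIs per 10000) after thinning to 1000 UMIs; they come from cells of 1 matrix and have no p. The text names the 9 members, listed pathway genes at 50 CPM or more in a class or needed as partners, and the 3 genes most correlated with each member among those with at least 200 thinned UMIs. Saa1 was named after its value was seen. The scripts were tested on simulated data. Alternatives were other cell filters, gates, clustering (scanpy), surfactant limits of 1% or 5%, a pseudocount of 1 CPM, no minimum CPM, and thinning to 500 or 2000 UMIs. Leaving out epithelial cells with 2 or more of Ptprc, Tyrobp, Fcer1g and Coro1a was chosen after seeing the data.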

Additional observations from a re-analysis of the deposited data

How the results depend on the processing

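Over 74 recomputed summary values, 60 stayed the same by the measure used, 14 moved and 0 reversed. Counts and r were called the same within a fixed factor, and levels and ratios when they stayed inside the main interval. Only a ratio or r could be called reversed, by a change of sign, so the 0 says nothing about counts and levels. The number of members highest in epithelial cells was 7 and the number 2-fold higher with surfactant was 8 under each alternative run on them, while the number 4-fold over the next class was 4, without Chil1, when cells with any gate gene of another class were left out and 6 with a pseudocount of 1 CPM. The summed epithelial level of 9224 CPM was 9907 without upper cut-offs, 8744 with 95th percentile cut-offs, 10213 with 3 gate genes, 6214 without cells holding a gate gene of another class, 10015 with classes from clustering and 10345 without epithelial cells with 2 or more immune genes, the last chosen after seeing the data. The log2 ratio of all surfactant-high to all surfactant-low cells, 2.83, was 2.71, 1.99, 1.28, 2.00 and 1.96 under the last 5 of these, and 2.95 and 2.60 with surfactant limits of 1% and 5%. The 107 cells below both the surfactant and the ATI limit, mostly with immune genes, lie in its denominator. Pairs above the surfactant background fell from 32 to 19 without cells holding a gate gene of another class and to 29 without TdTomato cells outside the epithelium. The median r between members was 0.144 at 500 UMIs and 0.262 at 2000, so it moves with depth. Of 720 recomputed values of single genes and background shares, 558 stayed the same, 162 moved and 0 reversed, where only the ratios could reverse. Depth limits the low-surfactant state, where Itih4 and Lrg1 had 0 UMIs, Ang had 1 and Hc and Lcn2 had 2 each. With a minimum of 500 genes per cell the highest class of Lrg1 turned from neutrophils to endothelial cells, which changes no value counted as reversed above, since those compare epithelial cells with the next class. No paired analysis was possible because cells carry no mouse and no test between groups was run.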
